A study of Mus musculus with 6 samples.

Results

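Transcripts of the colony-stimulating factor (CSF) receptors and of ligands acting on these or related receptors were examined in M2c-polarized macrophages lacking the soluble epoxide hydrolase (sEH). The set comprised the 8 rows of the deposited count table carrying the symbols *Csf1r*, *Csf2ra*, *Csf2rb*, *Csf2rb2*, *Csf3r*, *Csf1*, *Kitl* and *Cish*, out of 19309 genes. The genes were chosen by name, because the cells were grown in M-CSF and GM-CSF, and with earlier results of these data known. RNA was sequenced from 3 sEH-/- and 3 wild-type libraries of bone marrow-derived macrophages, with 1 mouse behind each library. All cells of both genotypes were differentiated over 7 days with both M-CSF and GM-CSF, were polarized to M1 macrophages with IFN-γ and LPS, and received TGF-β1 on top after 24 h for a further 48 h, as the labels state. The sEH-/- mice carry a constitutive deletion of *Ephx2* in every tissue, and age- and strain-matched littermates served as wild-type controls. The labels state neither age nor sex, and the methods give an age only for bone marrow donors in general. The study used mostly females, and its experiments after a comparison of the sexes used bone marrow from females. The comparison therefore asks whether macrophages of sEH-/- mice differ from wild-type cells in the transcripts of these receptors and ligands and of *Cish*. *Csf3r* and *Kitl* belong to growth factors other than the M-CSF and GM-CSF of the culture.

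M-CSF, encoded by *Csf1*, acts on the receptor tyrosine kinase encoded by *Csf1r* and maintains the survival of macrophages. GM-CSF binds a receptor made of a specific α chain (*Csf2ra*) and a common β chain (*Csf2rb*), and mice carry a second β chain (*Csf2rb2*) that serves the IL-3 receptor. Receptors of this family signal through JAK2 and STAT5, and CIS, the product of *Cish*, is induced by STAT5 and dampens the same pathway, whereas *Csf3r* encodes the G-CSF receptor of neutrophils and *Kitl* encodes stem cell factor, the ligand of the receptor KIT.

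Promoter sequences were available for 6 of the 8 genes from RefSeq (build GRCm38.p6), from 250 bases before to 50 bases after the start of the transcript. The 4 printed here belong to the gene that was called, to the receptors whose genotypes did not overlap and to the STAT5 target, and each runs from 250 bases before to 20 bases after the start. They lie at chr10:100015571-100015840 on the plus strand (*Kitl*), chr4:126024409-126024678 on the plus strand (*Csf3r*), chr19:61228399-61228668 on the minus strand (*Csf2ra*) and chr9:107296409-107296678 on the plus strand (*Cish*). Capitals mark matches on either strand to TATAAA, the box bound by the basal machinery at many starts, to GAGGAAG, a core of the sites of the myeloid factor PU.1, and to TTCNNNGAA, the core of the sites of STAT factors.
Kitl: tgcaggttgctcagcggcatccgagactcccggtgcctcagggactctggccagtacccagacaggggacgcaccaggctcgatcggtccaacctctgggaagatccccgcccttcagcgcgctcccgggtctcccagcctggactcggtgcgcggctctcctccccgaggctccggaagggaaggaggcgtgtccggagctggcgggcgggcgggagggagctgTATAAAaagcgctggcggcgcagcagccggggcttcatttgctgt
Csf3r: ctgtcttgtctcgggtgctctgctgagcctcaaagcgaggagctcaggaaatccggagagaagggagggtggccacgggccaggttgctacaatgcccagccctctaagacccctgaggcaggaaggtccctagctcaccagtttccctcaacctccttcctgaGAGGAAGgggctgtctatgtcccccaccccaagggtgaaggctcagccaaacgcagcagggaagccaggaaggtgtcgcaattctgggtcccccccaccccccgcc
Csf2ra: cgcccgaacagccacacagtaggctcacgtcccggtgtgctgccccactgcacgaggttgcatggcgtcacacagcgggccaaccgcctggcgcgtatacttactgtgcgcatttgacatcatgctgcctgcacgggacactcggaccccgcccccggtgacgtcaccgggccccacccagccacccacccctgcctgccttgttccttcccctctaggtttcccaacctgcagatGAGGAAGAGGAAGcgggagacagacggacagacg
Cish: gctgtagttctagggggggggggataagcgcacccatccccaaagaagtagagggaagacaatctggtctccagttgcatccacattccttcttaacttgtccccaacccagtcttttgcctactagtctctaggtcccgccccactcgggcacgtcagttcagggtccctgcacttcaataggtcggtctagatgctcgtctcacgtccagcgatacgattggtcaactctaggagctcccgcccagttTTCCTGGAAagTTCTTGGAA
With the first transcribed base counted as 1, *Kitl* held TATAAA from −25 to −20 and *Csf3r* held GAGGAAG from −86 to −80. *Csf2ra* held GAGGAAG from −14 to −8 and again from −8 to −2, so that these matches share a base. *Cish* held TTCCTGGAA from 1 to 9 and TTCTTGGAA from 12 to 20. Over 32851 windows of this kind, 13.6% held TATAAA, 13.6% held GAGGAAG and 8.30% held TTCNNNGAA, and a match describes letters and does not show a bound site.

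Library totals lay between 4400197 and 6096440 counts, and 13785 genes, those whose mean count exceeded 5, were tested. *Ephx2*, which encodes the sEH and checks the genotype labels, was counted 4, 2 and 1 times in sEH-/- cells, against 26, 49 and 57 times in wild-type cells. All 6 macrophage markers were detected in every library, with summed levels of 1378 to 1707 CPM (counts scaled by the normalized library size) in sEH-/- and 1230 to 1562 CPM in wild-type cells. Of 9 neutrophil markers 6 had a row, and their summed level was 27.7 to 31.3 CPM in sEH-/- and 17.6 to 20.97 CPM in wild-type cells. Of 8 stromal markers 7 had a row, and their summed level was 11.6 to 21.04 CPM in sEH-/- and 7.04 to 65.1 CPM in wild-type cells.

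Among the 8 genes, *Kitl* fell in sEH-/- macrophages and none was called higher by edgeR. A gene was called at an adjusted p below 0.05 in edgeR's quasi-likelihood test and a change of more than 1.5-fold in either direction. By these criteria 2.61% of all tested genes were called, 1.51% higher and 1.10% lower in sEH-/- cells. With the adjusted p alone, *Kitl* was again the gene that passed, beside 4.01% of all tested genes (2.39% higher and 1.62% lower). The levels of *Csf2ra* and *Csf3r* were higher in every sEH-/- library than in every wild-type library, and those of *Kitl* were lower. Such separation was seen in 26.3% of all tested genes, 11.8% in the higher and 14.5% in the lower direction. Without adjustment, 2 of the 8 genes were higher and 1 lower at a p below 0.05, beside 23.4% of all tested genes (11.1% higher and 12.2% lower). DESeq2, the study's own tool, called 1 of the 8 higher (*Csf3r*) and 1 lower, beside 1.97% and 1.47% of all tested genes. Limma-voom called 0 higher and 1 lower, beside 1.30% and 0.929%. The median log2 fold change of the 8 genes was 0.095, beside −0.00092 for all tested genes. In bulk RNA, fewer cells of a type and less RNA per cell cannot be told apart.

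**Figure D1:**
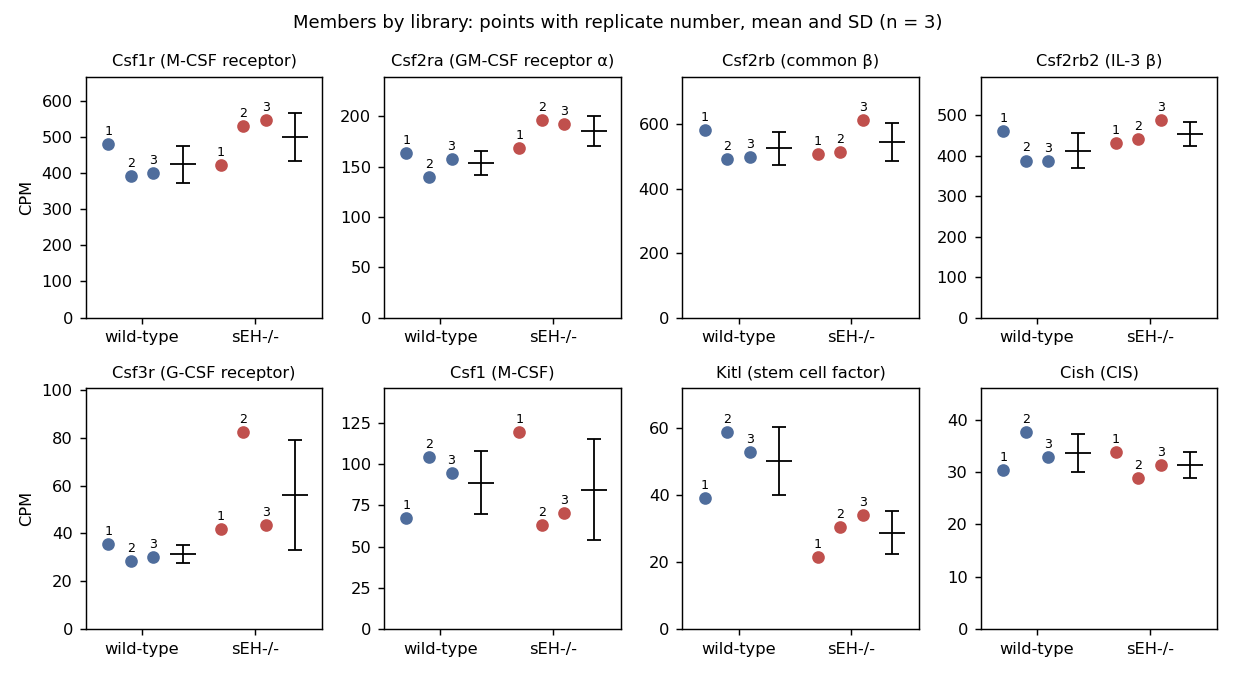
Level of each of the 8 genes in CPM (vertical axis, starting at 0) in the 3 wild-type (blue) and 3 sEH-/- (red) libraries. Points carry the replicate number, and the bar to their right gives the mean and SD. *Kitl* lies between 21.6 and 34.1 CPM in sEH-/- and between 38.9 and 58.7 CPM in wild-type libraries, while *Csf3r* reaches 82.5 CPM in sEH-/- replicate 2 alone.

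The receptors for the growth factors of the culture did not pass the test. *Csf1r*, which encodes the M-CSF receptor, had 424, 530 and 546 CPM in sEH-/- replicates 1 to 3 and 482, 391 and 399 CPM in wild-type replicates 1 to 3. The genotypes overlapped, since sEH-/- replicate 1 lay below wild-type replicate 1. The log2 fold change of *Csf1r* was 0.24 (SE 0.12, 95% interval from −0.027 to 0.50, adjusted p = 0.27). On the opposite strand, *Hmgxb3* overlaps 15.1% of the exonic bases of *Csf1r*, and the counting was strand-aware.

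*Csf2ra*, which encodes the ligand-binding chain for GM-CSF, had 169, 196 and 192 CPM in sEH-/- and 163, 140 and 158 CPM in wild-type libraries. The genotypes did not overlap, although sEH-/- replicate 1 and wild-type replicate 1 lay close to each other. The log2 fold change was 0.27 (SE 0.086, 95% interval from 0.083 to 0.46), which corresponds to 1.21-fold, with an adjusted p of 0.090. Without sEH-/- replicate 1 the adjusted p was 0.042 and the log2 fold change 0.34, still below the fold change threshold. *Csf2ra* (ENSMUSG00000059326) is encoded on mm10 chromosome 19 (61223957 to 61228429, minus strand), and no stretch of 50 bases of its transcripts recurred in those of another gene.

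The β chains did not pass the test either. *Csf2rb*, the common chain of the GM-CSF, IL-3 and IL-5 receptors, had 508, 514 and 612 CPM in sEH-/- and 584, 494 and 499 CPM in wild-type libraries. *Csf2rb2*, the chain dedicated to IL-3, had 431, 443 and 488 CPM in sEH-/- and 463, 389 and 386 CPM in wild-type libraries. For each chain the lowest sEH-/- library lay below the highest wild-type library. The log2 fold change was 0.052 (SE 0.11, 95% interval from −0.18 to 0.29, adjusted p = 0.82) for *Csf2rb*. It was 0.14 (SE 0.097, 95% interval from −0.077 to 0.35, adjusted p = 0.43) for *Csf2rb2*. With each library left out, *Csf2rb* ranged from −0.030 (without sEH-/- replicate 3) to 0.13, and *Csf2rb2* from 0.092 to 0.23 (without wild-type replicate 1, adjusted p = 0.15).

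These β chain genes lie next to each other on mm10 chromosome 15, with *Csf2rb2* on the minus strand from 78282507 to 78305721 and *Csf2rb* on the plus strand from 78325752 to 78353847, so that their starts are 20031 bases apart. Their transcripts share sequence: 12.3% of the 50-base stretches of *Csf2rb* and 18.9% of those of *Csf2rb2* recurred in another gene, and 892 were common to the pair. Reads that mapped to several places had been removed, so that such stretches can be missing from either count, and the read length is not given in the sources used here. At 100 bases the shares were 4.63% and 6.82%.

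The balance of the chains was also compared within each library, free of library size. The log2 ratio of *Csf2rb2* to *Csf2rb*, scaled for exonic length, came to 0.38, 0.40 and 0.29 in sEH-/- cells, against 0.28, 0.27 and 0.25 in wild-type cells. All 3 sEH-/- ratios lay above the wild-type ratios, with a mean difference of 0.089 and a two-sided exact permutation p of 0.1, the smallest that 3 against 3 libraries allow. The log2 ratio of *Csf2ra* to *Csf1r* came to −0.32, −0.43 and −0.50 in sEH-/- cells, against −0.55, −0.48 and −0.33 in wild-type cells. These ratios overlapped, with a mean difference of 0.038 (two-sided exact permutation p = 0.7) that turned negative without sEH-/- replicate 1 (−0.0098) or wild-type replicate 1 (−0.012).

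The raw counts of the abundant receptors varied less than the library totals. Those of *Csf2rb* and *Csf2rb2* were highest in sEH-/- replicate 1 and wild-type replicate 2, the libraries with the highest totals. The count of *Csf1r* was highest in sEH-/- replicate 2. Over the 6 libraries the totals spanned 1.39-fold, while the counts of *Csf1r* spanned 1.199-fold (2191 to 2628), those of *Csf2rb* 1.195-fold (2548 to 3044) and those of *Csf2rb2* 1.197-fold (2103 to 2518). At their highest, these genes had 0.46, 0.42 and 0.53 counts per exonic base. The counts were made after removal of duplicate reads, and with counts corrected for saturation at 1 count per exonic base the log2 fold change was 0.29 for *Csf1r* (adjusted p = 0.19), 0.045 for *Csf2rb* (adjusted p = 0.84) and 0.16 for *Csf2rb2* (adjusted p = 0.35). For *Csf2ra* it was 0.31 (adjusted p = 0.064).

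**Figure D2:**
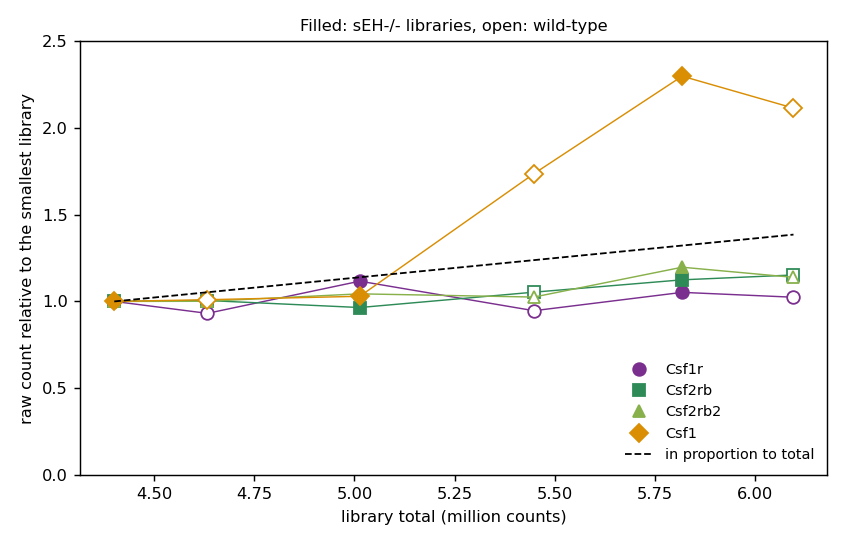
Raw counts of 4 genes in each library, relative to the library with the smallest total (vertical axis), against the library total (horizontal axis). Filled symbols are sEH-/- and open symbols wild-type libraries, and the dashed line gives counts in proportion to the total. *Csf1r*, *Csf2rb* and *Csf2rb2* vary less than the total, whereas *Csf1* lies at 304 to 313 counts in the 3 smaller and at 528 to 699 counts in the 3 larger libraries.

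*Csf3r*, which encodes the G-CSF receptor, showed the highest log2 fold change of the 8 genes but was not called. It had 41.7, 82.5 and 43.6 CPM in sEH-/- and 35.6, 28.2 and 30.1 CPM in wild-type libraries, that is 56.0 ± 23.0 against 31.3 ± 3.84 CPM (SD, n = 3 each). The genotypes did not overlap, and sEH-/- replicate 2 stood apart from the other 5 libraries. The log2 fold change was 0.84 (SE 0.24, 95% interval from 0.32 to 1.37) with an adjusted p of 0.069. Without sEH-/- replicate 2 it was 0.47 (adjusted p = 0.13), whereas without replicate 1 or replicate 3 of this genotype the gene was called (adjusted p = 0.035 and 0.047). It was also called by DESeq2 (adjusted p = 0.0051) and without a filter on low counts (adjusted p = 0.041).

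The summed neutrophil markers were, like *Csf3r*, higher in sEH-/- cells, where their range lay above that in wild-type cells. Within the genotypes, sEH-/- replicate 2 was highest both for *Csf3r* and for the sum (31.3 CPM). Wild-type replicate 1 had the highest *Csf3r* level of its genotype but the lowest sum (17.6 CPM). Most of the sum was *S100a8*, with 24.0, 29.7 and 27.1 CPM in sEH-/- and 17.1, 18.2 and 20.1 CPM in wild-type libraries. The other neutrophil markers with a row, *S100a9*, *Elane*, *Camp*, *Ltf* and *Cxcr2*, had 0 to 10 counts in any library. Their part in the level of *Csf3r* was not tested. *Csf3r* (ENSMUSG00000028859) is encoded on mm10 chromosome 4 (126024550 to 126044440, plus strand), and 10.5% of its 50-base stretches, but 2.95% of its 75-base stretches, recurred in transcripts of other genes.

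Of the ligands, *Kitl* fell and *Csf1* did not pass the test. *Kitl*, which encodes stem cell factor, had 21.6, 30.3 and 34.1 CPM in sEH-/- and 38.9, 58.7 and 52.7 CPM in wild-type libraries, from 126, 150 and 147 against 177, 362 and 294 counts. Every sEH-/- library lay below every wild-type library, with 28.6 ± 6.42 against 50.1 ± 10.2 CPM (SD, n = 3 each). The level in sEH-/- cells was 0.562 times that in wild-type cells, or −0.83 on the log2 scale (SE 0.18, 95% interval from −1.24 to −0.42, adjusted p = 0.040 from edgeR). *Kitl* (ENSMUSG00000019966) spans 84787 bases of mm10 chromosome 10 (100015630 to 100100416, plus strand), and its transcripts shared no 50-base stretch with another gene.

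The direction for *Kitl* was the same with each library left out, with log2 fold changes from −0.97 to −0.65, but the call was not. The adjusted p was 0.097 without sEH-/- replicate 2, and it was 0.20 and 0.17 without replicates 2 and 3 of the wild-type, respectively. It was 0.080 when the logged library total entered the fit and 0.0023 by DESeq2. *Kit*, which encodes the receptor for stem cell factor, had 0 to 4 counts in any library and was not tested.

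Stem cell factor is a known product of stromal cells, and the stromal markers varied between libraries. Their summed level was 21.04, 20.4 and 11.6 CPM in sEH-/- and 7.04, 65.1 and 25.1 CPM in wild-type libraries. Wild-type replicate 2 was highest both for the stromal sum, through *Col1a1* (121 counts) and *Col1a2* (171 counts), and for *Kitl*. Wild-type replicate 1 had the lowest stromal sum of the 6 libraries, and its *Kitl* level lay above that of every sEH-/- library. Within the wild-type libraries the order of *Kitl* followed that of the stromal sum, and within the sEH-/- libraries it ran the opposite way. Without wild-type replicate 2 the log2 fold change of *Kitl* was −0.70, and the part of stromal cells in its level was not tested.

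**Figure D3:**
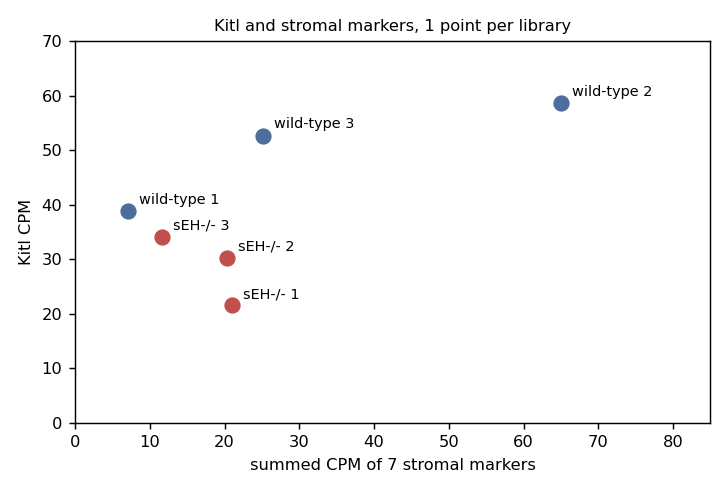
*Kitl* level in CPM (vertical axis) against the summed CPM of the 7 stromal markers with a row (horizontal axis), with 1 point per library (blue, wild-type; red, sEH-/-). Wild-type replicate 1, with a stromal sum of 7.04 CPM, has 38.9 CPM of *Kitl*, above the 21.6 to 34.1 CPM of the sEH-/- libraries. *Kitl* rises with the stromal sum among the wild-type points and falls with it among the sEH-/- points.

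*Csf1*, which encodes M-CSF, varied more within the genotypes than between them. It had 120, 63.2 and 70.5 CPM in sEH-/- and 67.5, 104 and 94.6 CPM in wild-type libraries. The 3 libraries with the highest *Csf1* levels, sEH-/- replicate 1 and wild-type replicates 2 and 3, were also the 3 with the highest totals. The log2 fold change was −0.069 (SE 0.22, 95% interval from −0.56 to 0.43, adjusted p = 0.89), and it was −0.42 without sEH-/- replicate 1 and 0.12 without sEH-/- replicate 2. *Csf2* and *Il34*, which encode GM-CSF and the other ligand of the M-CSF receptor, had no row in the deposited count table. *Csf3*, which encodes G-CSF, had 1 count in sEH-/- replicate 2 and 0 in the other libraries.

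*Cish*, the feedback inhibitor induced by STAT5, had 33.7, 28.9 and 31.3 CPM in sEH-/- and 30.3, 37.6 and 32.8 CPM in wild-type libraries. The genotypes overlapped, and the log2 fold change was −0.11 (SE 0.12, 95% interval from −0.37 to 0.16, adjusted p = 0.65). With each library left out it ranged from −0.17 (without wild-type replicate 1) to −0.014 (without wild-type replicate 2). The interval with all libraries stayed within the threshold of 1.5-fold in both directions. On the opposite strand, *Gm17041* and *Gm17040* overlap 7.46% and 4.07% of the exonic bases of *Cish*, and the counting was strand-aware.

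**Figure D4:**
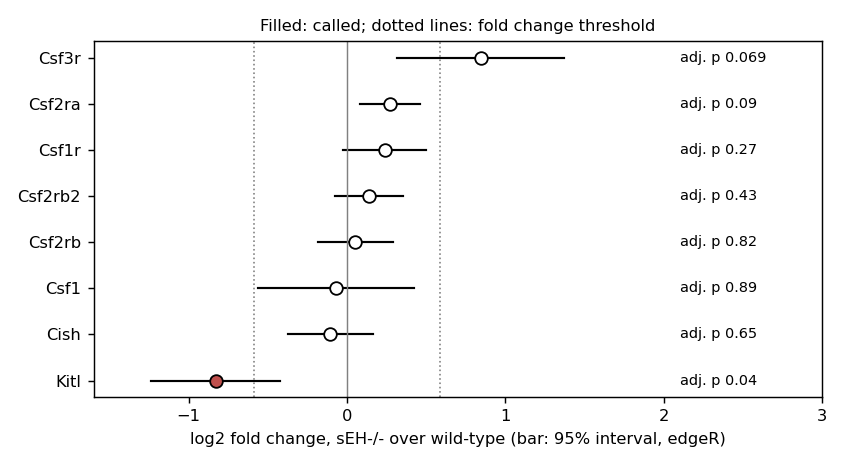
Log2 fold change of the 8 genes, sEH-/- over wild-type (horizontal axis), with 95% intervals from edgeR and the adjusted p at the right. The filled point is the called gene, *Kitl* at −0.83, and the dotted lines give the threshold of 1.5-fold in each direction.

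Scaled by exonic length, the 4 receptor genes of M-CSF, GM-CSF and IL-3 stood above the other 4 genes in both genotypes. In wild-type cells, *Csf2rb2* had 87.1 ± 9.17, *Csf1r* 73.4 ± 8.68, *Csf2rb* 72.2 ± 6.94 and *Csf2ra* 53.5 ± 4.27 CPM per kb (SD, n = 3 each). The wild-type ranges of *Csf2rb2* (81.5 to 97.6) and *Csf1r* (67.7 to 83.4) overlapped, as did those of *Csf1r* and *Csf2rb*, whereas *Csf2ra* (48.7 to 56.9) lay below all of these. *Csf1* followed at 16.8 ± 3.62 CPM per kb, ahead of *Csf3r* at 8.68 ± 1.06, *Kitl* at 8.48 ± 1.72 and *Cish* at 5.23 ± 0.58. The wild-type ranges of *Csf3r* and *Kitl* overlapped. In sEH-/- cells *Csf3r* stood at 15.5 ± 6.38 CPM per kb, within the range of *Csf1* (12.0 to 22.6), and *Kitl* stood at 4.84 ± 1.09, beside *Cish* at 4.87 ± 0.38. Removal of duplicate and multi-mapping reads lowers counts unequally between genes, so that the order among the 4 receptor genes is that of the deposited counts.

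The wider pathway was described through 7 lists of genes. Of their 87 genes 78 had a row and 74 were tested, of which 3 rose and 1 fell in sEH-/- macrophages, or 5.41% beside 2.61% of all tested genes. The median log2 fold change of the 74 genes was 0.11, with 47 above and 27 below 0. At an unadjusted p below 0.05, 22 of the 74 were higher and 5 lower, and the counts at this threshold in each list stand beside 11.1% higher and 12.2% lower among all tested genes. The lists are small, and nothing is read from these counts.

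Proximal signalling of the receptors (19 genes, among them JAK2 and STAT5) held 0 called genes by edgeR, DESeq2 and limma-voom, with 6 higher and 1 lower at an unadjusted p below 0.05 (all genes, 11.1% and 12.2%). Its median log2 fold change was 0.11. The most abundant were *Syk*, a tyrosine kinase (−0.027, adjusted p = 0.89), *Inpp5d*, the phosphatase SHIP1 (0.20, adjusted p = 0.17), and *Stat3* (0.059, adjusted p = 0.68). *Plcg2*, a phospholipase activated downstream of the M-CSF receptor and chosen after its values were seen, had 196, 213 and 198 CPM in sEH-/- and 165, 149 and 149 CPM in wild-type libraries (log2 fold change 0.39, adjusted p = 0.026). The genotypes did not overlap, and the gene passed the adjusted p but not the fold change threshold.

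Among 11 STAT5 targets and SOCS genes, 1 rose and 0 fell by edgeR (all genes, 1.51% and 1.10%). At an unadjusted p below 0.05, 3 were higher and 1 was lower (all genes, 11.1% and 12.2%), and the median log2 fold change was −0.078. The gene that rose was *Myc*, a transcription factor of cell growth, with 20.02, 15.9 and 12.3 CPM in sEH-/- and 6.82, 3.89 and 7.35 CPM in wild-type libraries. All sEH-/- libraries lay above the wild-type libraries, and the difference was 1.44 on the log2 scale (SE 0.27, adjusted p = 0.027). Leaving out sEH-/- replicate 2 (adjusted p = 0.061) or replicate 2 or 3 of the wild-type (0.12 each) ended the call. *Mcl1* and *Bcl2l1*, which encode survival proteins, had log2 fold changes of 0.11 (adjusted p = 0.56) and −0.078 (adjusted p = 0.56), and *Pim1*, a kinase induced by STAT5, had −0.10 (adjusted p = 0.42).

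Among 9 tested genes associated with GM-CSF culture, 1 rose and 1 fell by edgeR (all genes, 1.51% and 1.10%). At an unadjusted p below 0.05, 1 was higher and 2 were lower (all genes, 11.1% and 12.2%), and the median log2 fold change was −0.10. *Ccl22*, a chemokine, had 13.2, 9.08 and 9.74 CPM in sEH-/- and 4.18, 4.71 and 5.56 CPM in wild-type libraries. It rose by 1.15 on the log2 scale (SE 0.24, adjusted p = 0.034) without overlap. The call was lost without sEH-/- replicate 1 (adjusted p = 0.0503) or 2 (0.061), or wild-type replicate 2 (0.17) or 3 (0.13). It was also lost with the replicate number as a block (0.071). *Pparg*, a nuclear receptor induced by GM-CSF in alveolar macrophages, had 17.96, 15.9 and 23.0 CPM in sEH-/- and 24.4, 36.8 and 34.8 CPM in wild-type libraries. It fell by 0.77 on the log2 scale (SE 0.19, adjusted p = 0.048), again without overlap. The call was lost without sEH-/- replicate 1 (0.065) or 2 (0.16), or wild-type replicate 2 (0.22) or 3 (0.19). Limma-voom (0.052) and counts thinned to the smallest library (0.056) also ended it. So did the replicate number as a block (0.062) and the logged library total in the fit (0.091). *Itgax* (−0.15), *Chil3* (0.089) and *Bhlhe40* (−0.18), the most abundant of the list, had adjusted p-values of 0.71, 0.77 and 0.20.

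Among 10 tested genes associated with M-CSF culture, edgeR and limma-voom called 0, with 4 higher and 0 lower at an unadjusted p below 0.05 (all genes, 11.1% and 12.2%), and the median log2 fold change was 0.25, with 8 genes above 0. Among the most abundant were *Plau*, the urokinase (−0.14, adjusted p = 0.37) and *C1qc*, a complement component (0.29, adjusted p = 0.21). DESeq2 called 1 gene higher, *C1qa*, which was chosen after its values were seen and had 139 CPM in sEH-/- replicate 2 against 60.8 to 96.0 CPM in the other libraries. *Cd163* had 0 to 2 counts and was not tested.

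Of 12 transcription factors known to act on the CSF receptor genes, 1 rose and 0 fell by edgeR (all genes, 1.51% and 1.10%). At an unadjusted p below 0.05, 4 were higher and 0 lower (all genes, 11.1% and 12.2%), and the median log2 fold change was 0.13. *Ets1* had 32.2, 24.8 and 19.2 CPM in sEH-/- and 13.4, 14.1 and 13.8 CPM in wild-type libraries. The sEH-/- libraries lay above the wild-type libraries and spread more widely, and the difference was 0.89 on the log2 scale (SE 0.19, adjusted p = 0.034). Leaving out sEH-/- replicate 2 (adjusted p = 0.082) or replicate 2 (0.16) or 3 (0.15) of the wild-type ended the call. So did the replicate number as a block (0.056). *Irf8* (−0.0063), *Cebpa* (−0.094) and *Tfe3* (0.23) did not pass the test (adjusted p = 0.98, 0.47 and 0.13).

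Receptor shedding and turnover (10 genes) held 0 called genes by each of the 3 tools, with 2 higher and 1 lower at an unadjusted p below 0.05 (all genes, 11.1% and 12.2%) and a median log2 fold change of 0.069. *Adam17*, the protease that sheds the M-CSF receptor, had a log2 fold change of 0.30 (adjusted p = 0.10), *Adam10* 0.084 (adjusted p = 0.60) and *Cbl*, a ubiquitin ligase of the receptor, −0.030 (adjusted p = 0.90). Of the other cytokines and receptors of the family 3 of 14 were tested and 0 were called by any of the 3 tools, with 2 higher and 0 lower at an unadjusted p below 0.05 (all genes, 11.1% and 12.2%). *Flt3l*, the ligand of FLT3, had 24 to 57 counts (0.72, adjusted p = 0.10), *Il3ra*, the α chain for IL-3, had 0.24 (adjusted p = 0.11), and *Epor* had 1 to 10 counts (−0.52, adjusted p = 0.75).

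**Figure D5:**
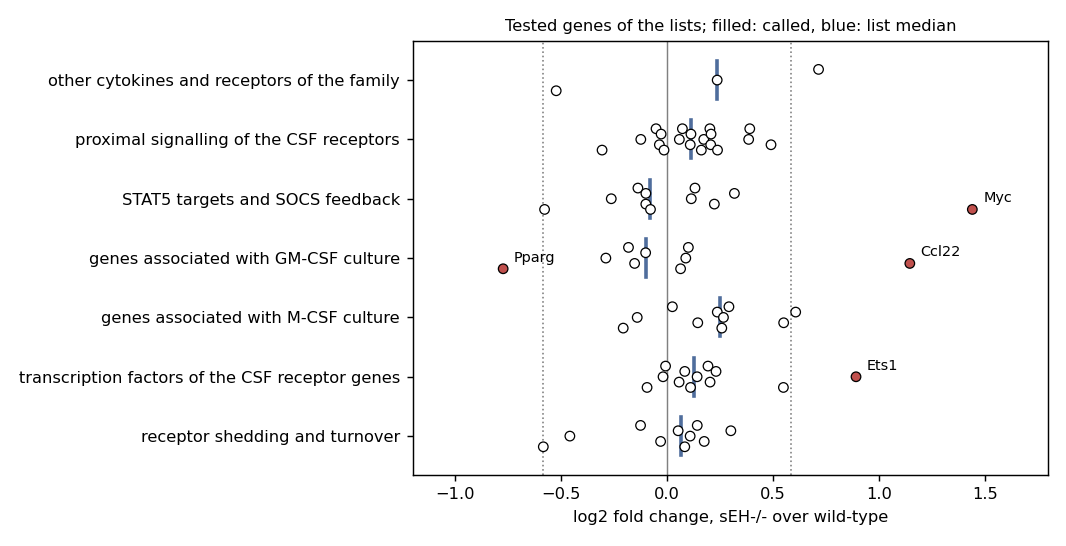
Log2 fold change, sEH-/- over wild-type (horizontal axis), of the tested genes of 7 lists (rows). Each circle is a gene, filled where called, the blue line is the median of the list, and dotted lines give the threshold of 1.5-fold in each direction. *Myc* (1.44), *Ccl22* (1.15) and *Ets1* (0.89) lie to the right and *Pparg* (−0.77) to the left of the thresholds, and the medians of the lists lie between −0.10 and 0.25.

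Profiles over the 6 libraries were compared by the root mean square distance of centred log2 CPM, among 10277 genes whose mean count reached 50. Among the nearest to *Csf1r* were *Mmp14*, a membrane-bound metalloproteinase (0.020), and *Mcemp1* (0.025), beside a median distance of 0.22. Nearest to *Csf2rb* were *Dpy19l3* (0.022), *Adam8* (0.036) and *Hpse*, the heparanase (0.038), beside a median of 0.17. *Csf1* had no neighbour as close, with *Tal1* (0.078), *Bmpr1a* (0.092) and the cytokine *Osm* (0.11) nearest and a median of 0.37. None of these 8 genes passed the test between the genotypes, with adjusted p-values from 0.26 to 0.94. The likeness is a description over 6 libraries that share the same totals and counting.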

How the data were processed

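RNA was sequenced from M2c-polarized macrophages, with 3 libraries per genotype. The authors deposited raw counts per gene, which are not normalized. Per the labels' processing notes, reads were trimmed with Trimmomatic 0.39, aligned to mm10 with STAR 2.7.7a, filtered with Picard 2.21.7 and counted with featureCounts 1.6.5, and DESeq2 1.30.0 was named. The methods add that duplicate, multi-mapping, ribosomal and mitochondrial reads were removed and that exonic reads on the correct strand were counted. The labels and the methods name different tool versions, library kits, RNA inputs and lengths of the M1 and TGF-β1 steps, and the labels were followed. The 19309 gene identifiers were matched to GENCODE M21, and 19286 had an exonic length.

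Counts were fitted in R 4.3.3 with edgeR 4.0.16 (TMM, quasi-likelihood test, no covariates) over 13785 genes with a mean count above 5. Genes were called at a Benjamini-Hochberg adjusted p below 0.05 over all tested genes and a change of more than 1.5-fold in either direction. CPM values use TMM-normalized library sizes, and the SE follows from the log2 fold change and the square root of its F statistic. Alternatives were DESeq2 1.42.0, voom in limma 3.58.1, RLE factors, no TMM factors, other filters, thinning, a replicate block, no fold change threshold, a ceiling correction, the library total as a covariate and each library left out. Scripts were tested on simulated data. The smallest library held 4400197 and the largest 6096440 counts, the biological coefficient of variation was 0.0866, and no pair of libraries of a genotype differed by as little as sampling noise (chi-square per degree of freedom 2.36 to 5.25).

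The 8 genes, the 7 gene lists and the marker lists (macrophage, neutrophil, mast cell and basophil, dendritic cell, stromal, endothelial, lymphocyte, and erythroid and progenitor cells) were chosen with earlier results of these data known. Named genes were the 8 genes, called genes of the lists, otherwise up to the 3 most abundant of a list, *Ephx2*, and the 3 nearest profiles of *Csf1r*, *Csf2rb* and *Csf1*, and a few genes that this rule or a count names are not reported here. Promoters came from RefSeq, and figures were drawn with matplotlib.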

Additional observations from a re-analysis of the deposited data

How the results depend on the processing

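The log2 fold changes of *Csf1r*, *Csf2ra*, *Csf2rb2*, *Csf3r*, *Kitl* and *Cish* kept their direction under all 17 alternatives. *Kitl* was called under 13 of them and *Csf3r* under 4. The alternative without the fold change threshold uses the same fit, so it could change neither a direction nor the *Kitl* call. Over all genes, 360 were called (208 higher and 152 lower). DESeq2 called 473 genes and shared 338 with these, and limma-voom called 307 and shared 296. DESeq2 and the fit without a filter each called 1 of the 8 genes higher, *Csf3r*, and without a filter 240 genes were called lower and 514 in all. Without the fold change threshold 553 genes passed, 329 of them higher, with 5 genes of the lists higher. With the logged library total in the fit 171 genes were called, 121 higher and 50 lower, with 0 of the 8 genes and 0 genes of the lists lower, and the log2 fold change reversed for *Csf1* (0.075), *Csf2rb* (−0.0040) and *Chil3* (−0.024). For *Irf8* it reversed with DESeq2 (0.0013), RLE factors (0.0012) and thinning (0.0093). Limma-voom and thinning each left 0 genes of the lists lower. Where no sentence names one, the cause of a change was not tested.

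With each library left out, 6 to 625 genes were called, 4 to 346 higher and 2 to 312 lower. The lowest counts were 6 without wild-type replicate 3, 25 without wild-type replicate 2 and 96 without sEH-/- replicate 2. Of the 8 genes 0 to 1 were called higher and 0 to 1 lower, and of the lists 0 to 5 genes higher and 0 to 1 lower. The log2 ratio of *Csf2ra* to *Csf1r* differed by −0.012 to 0.098 and that of *Csf2rb2* to *Csf2rb* by 0.066 to 0.12 between the genotypes. Log2 fold changes spanned 0 for *Csf1* (−0.42 to 0.12), *Csf2rb* (−0.030 to 0.13), *Cbl* (−0.13 to 0.032), *Chil3* (−0.11 to 0.20), *Irf8* (−0.072 to 0.088), *Itgax* (−0.44 to 0.087) and *Syk* (−0.075 to 0.018).

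The genotypes share replicate numbers. The deviations of same-numbered libraries from their genotype means correlated at −0.082, −0.26 and −0.037. With 3 libraries per genotype, such correlations cannot decide whether the numbers pair the mice. With the replicate number as a block 234 genes were called, 149 higher and 85 lower, with 1 of the 8 genes lower (*Kitl*, adjusted p = 0.014), and 1 gene of the lists higher and 0 lower. Every library correlated best with another number than its own.

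With 3 libraries per genotype, edgeR's p-values set the difference against a variability estimated partly from all tested genes, not from the gene's own libraries alone. Two-sided exact tests of the ratios cannot go below 0.1. *Kit*, *Csf3*, *Cd163* and *Ccl17* were too low to test, with at most 5 counts in a library.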

Other observations

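Marker lists of cell types that the text has not described varied within the genotypes. Of 7 dendritic cell markers 5 had a row, with summed levels of 27.0 to 57.7 CPM in sEH-/- and 42.2 to 58.9 CPM in wild-type libraries, *Cd209a* at 0 throughout and *Clec9a*, with 96 to 232 counts, as the most abundant. Of 4 endothelial markers 3 had a row, with 46.4 to 55.4 CPM in sEH-/- and 36.9 to 57.8 CPM in wild-type libraries, most of it *Kdr* (184 to 260 counts). For mast cells and basophils, 2 of 7 markers had a row, with 7.06 to 10.7 CPM in sEH-/- and 3.96 to 10.4 CPM in wild-type libraries, nearly all of it *Gata2*. For erythroid and progenitor cells, 2 of 4 markers had a row, with 1.41 to 2.55 CPM in sEH-/- and 1.30 to 2.15 CPM in wild-type libraries. Of 4 lymphocyte markers 0 had a row.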
